A study of Mus musculus with 6 samples.

Results

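Chemokines, interleukins, colony-stimulating factors, tumour necrosis factor (TNF) family ligands and the receptors of these proteins were examined in sorted endothelial cells of smoke-exposed mice. Genes were taken by symbol from the features that map to 1 gene: every Ccl, Ccr, Cxcl, Cxcr and Cx3c gene, every numbered Il gene, Csf1 to Csf3 with their receptors, and every Tnf gene other than the Tnfaip genes. This gave 145 of 11138 named genes, comprising 33 chemokine ligands, 15 chemokine receptors, 32 interleukins and their antagonists, 29 interleukin receptor chains, 9 colony-stimulating factors and receptors, 10 TNF ligands and 17 TNF receptors. The symbol rule also takes in Il4i1, an amino acid oxidase named for its induction by interleukin-4, and the pseudogene Csf1r-ps.

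Each of the 6 arrays compared RNA of smoke-exposed mice with RNA of control mice. The 6-week group comprises 1 array with 1-week control on the other channel, the dye reversal of that array, and 1 array with 6-week control. The 1-week group comprises 3 arrays, and its replicate 1 is a dye reversal. The age of the control on the 1-week arrays is not stated. The organ, strain, age and sex of the mice, the smoke dose and the markers used for sorting were not stated in the labels used here. Neither do the labels say whether the arrays of a group came from separate animals, so that p-values measure only the spread between arrays. The number of arrays limits the precision.

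Chemokines are small secreted proteins that guide leukocytes along gradients by way of receptors coupled to G proteins. Endothelial cells present them on the vessel wall, where they turn rolling leukocytes into firmly adherent ones. Endothelium also makes interleukin-6 and several other cytokines when TNF or interleukin-1 activates the transcription factor NF-kB, and it answers cytokines through receptor chains that signal by JAK kinases and STAT factors or by TRAF adaptors.

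All values are log2 ratios. Smoke comes first in the array titles and is listed as channel 1 throughout, so a positive ratio is read as likely higher after smoke. No source states the numerator or whether the dye-reversed ratios had been turned before deposit. Signs were kept as deposited. Across the 2023 named genes whose spots lay within 0.5 of each other on every array, r was 0.166 between the 6-week dye reversal and its unreversed partner. It was 0.299 and 0.32 between the 1-week dye reversal and replicates 2 and 3. Over all 11138 named genes the first of these was -0.0302. Between the 2 dye reversals r was 0.51 across the 2023 genes, higher than either did with the unreversed arrays, so dye orientation moves with the values. A fit with dye orientation as a term took the 6 arrays as separate replicates, the 6-week dye reversal not being averaged with its partner. In it the 6-week mean of Il6 was 0.91, that of Cxcl12 -1.05, and the 1-week mean of Ccl2 -0.98. With separate arrays but no dye term these means were 0.93, -1.01 and -0.87. No gene of the family passed the adjusted test in either fit. Genes are not independent replicates, and the arrays against 1-week control may share control RNA. A table of ratios holds no expression levels, so the sorted cells could not be checked for endothelial identity. Fewer cells of a type and less RNA per cell cannot be told apart here.

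As a family these genes stayed close to the other genes on the arrays. The median over the 145 genes was -0.03 at 6 weeks and -0.02 at 1 week, against -0.01 at 6 weeks and -0.01 at 1 week over all named genes. No gene of the family had a limma p under 0.05 after Benjamini-Hochberg adjustment across the 19242 features tested, at 6 weeks, at 1 week, in the mean of both times or in the difference between times. Over all features 0 passed in each of these 4 comparisons as well, which is a background of 0%. At an unadjusted p under 0.05 stood 3 of the 145 genes at 6 weeks, where 4.12% of all features did, and 7 genes at 1 week, where 6.65% did. The same held for 9 genes in the mean of both times, with 6.31% of all features, and for 4 genes in the difference between times, with 3.55%. These shares lie near or below the background. The genes described next are therefore the ones that a stated rule picks from a family without a called member, and their values are given as measured.

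Agreement in sign across arrays was likewise close to the background. Negative on all 6 arrays were 5 genes, namely Ccl2, Cxcl12, Il17a, Il17rd and Il4ra, against 3.43% of all named genes. Positive on all 6 were 2 genes, Il33 and Il1f5, against 3.24%. On all 3 of the 6-week arrays 13 genes were positive and 19 negative, against 11.7% and 12.5% of named genes. On all 3 of the 1-week arrays 19 were positive and 23 negative, against 15.4% and 15.2%.

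**Figure D1:**
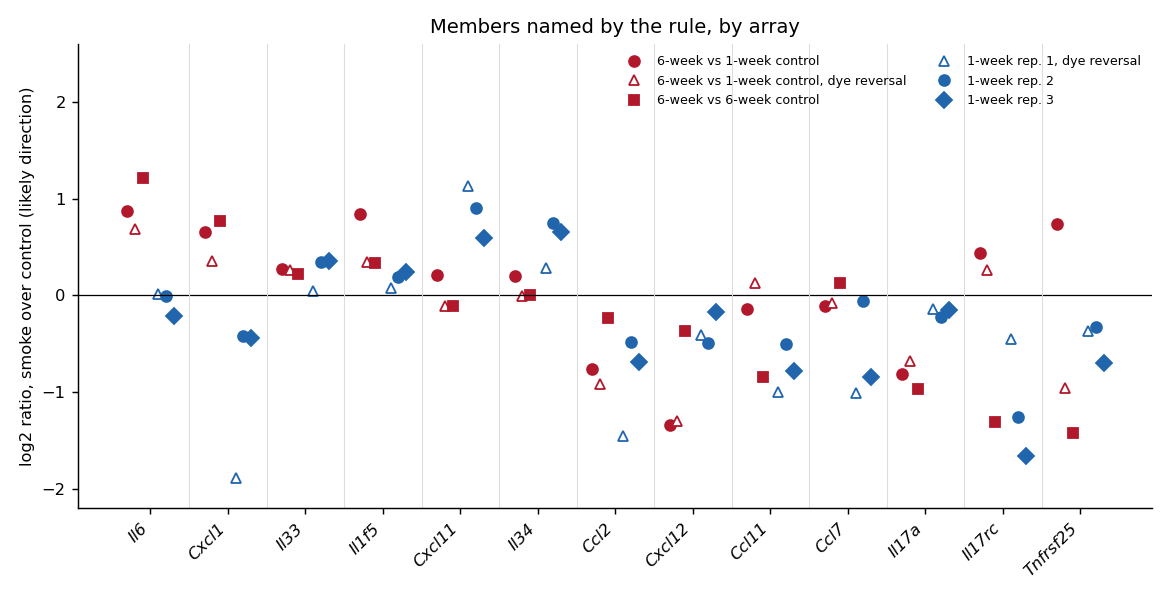
Log2 ratio of smoke over control (vertical axis) on each of the 6 arrays for 13 genes named by rule. Red symbols are the 6-week arrays, blue symbols the 1-week arrays and open triangles the dye reversals; Il6 is positive on the 3 red arrays and near 0 on the blue ones, and Ccl2 and Cxcl12 are below 0 on all 6.

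Of the 145 genes, Il6 had the lowest unadjusted p for a difference between the times. It encodes interleukin-6, a cytokine that induces acute phase proteins and is made by activated endothelium. Its log2 ratio was 0.88 on the 6-week array against 1-week control, 0.69 on the dye reversal of that array and 1.21 on the array against 6-week control. On the 1-week arrays it was 0.01, -0.01 and -0.21. All 3 of the 6-week arrays were thus positive, and they did not overlap the 1-week arrays, which lay around 0. The paired spots of Il6 differed by at most 0.26 on any array. The mean was 1.00 ± 0.20 at 6 weeks and -0.07 ± 0.17 at 1 week, where ± gives the standard error (SE) of limma's fit over 5 replicates, the 6-week dye swap being averaged into 1. The difference between 6 weeks and 1 week was 1.07 ± 0.26, with an adjusted p of 0.951 in limma, and of 0.352 among the 5628 named genes whose spots agreed within 1 on every array. With the 6-week dye reversal turned, the 6-week mean was 0.65 and the difference 0.72.

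Cxcl1, a chemokine that attracts neutrophils through Cxcr2, also separated the times. It stood at 0.66, 0.36 and 0.77 on the 6-week arrays, in the order used for Il6. On the 1-week arrays Cxcl1 stood at -1.89 on the dye reversal and at -0.42 and -0.45 on replicates 2 and 3. The 6-week arrays were all positive and the 1-week arrays all negative, and the spots differed by at most 0.59. The means were 0.64 ± 0.41 at 6 weeks and -0.92 ± 0.33 at 1 week, and the difference was 1.55 ± 0.52 with a limma adjusted p of 0.951. The 1-week mean leans on the dye reversal: without that array it was -0.43, and with both dye reversals turned it was 0.34.

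Counting all members, 5 genes had every 6-week array above every 1-week array, against 4.81% of named genes. They were Il6, Cxcl1, Cxcl13, Il1b and Il1f5. A further 5, Cxcl11, Il17a, Il34, Il21r and Ccl22, had every 6-week array below every 1-week array, against 5.87%. Of these genes Cxcl1 and Il1b were positive on all 6-week and negative on all 1-week arrays, against 1.19% of named genes, and Ccl22 the reverse, against 1.46%. These shares are near or below the background, so that non-overlap of 3 against 3 arrays is no more common here than elsewhere on the array. Since Il6 and Cxcl1 are both textbook targets of NF-kB, the promoters of these genes are shown, together with that of Cxcl12, which was negative throughout. The genes shown were chosen after their values were seen, and a part of NF-kB in the values was not tested. Sequences are from RefSeq, build GRCm38.p6, and are windows of 300 bases around the annotated start, on the plus strand. Capitals mark matches on either strand to an NF-kB motif, GGGA and TTCC with any 2 bases between them, and to the AP-1 motif TGANTCA. The windows are chr5:30012864-30013163 for Il6, chr5:90890995-90891294 for Cxcl1 and chr6:117168285-117168584 for Cxcl12.
Il6: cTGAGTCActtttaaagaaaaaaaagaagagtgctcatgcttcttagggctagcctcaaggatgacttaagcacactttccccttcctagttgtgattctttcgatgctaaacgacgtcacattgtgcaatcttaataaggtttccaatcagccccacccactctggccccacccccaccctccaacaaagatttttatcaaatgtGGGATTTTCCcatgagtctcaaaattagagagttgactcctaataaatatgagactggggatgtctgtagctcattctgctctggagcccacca
Cxcl1: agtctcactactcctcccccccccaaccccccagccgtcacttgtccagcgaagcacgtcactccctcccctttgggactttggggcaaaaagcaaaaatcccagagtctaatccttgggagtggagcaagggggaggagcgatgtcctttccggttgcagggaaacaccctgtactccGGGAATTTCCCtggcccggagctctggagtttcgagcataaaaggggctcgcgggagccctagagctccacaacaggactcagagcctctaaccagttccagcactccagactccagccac
Cxcl12: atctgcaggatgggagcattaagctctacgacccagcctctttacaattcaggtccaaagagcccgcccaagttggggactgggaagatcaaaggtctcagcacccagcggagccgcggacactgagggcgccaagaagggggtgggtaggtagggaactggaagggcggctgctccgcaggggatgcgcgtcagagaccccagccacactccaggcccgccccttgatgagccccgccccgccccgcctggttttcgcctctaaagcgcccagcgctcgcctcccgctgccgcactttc
The Il6 window holds 1 match to the NF-kB motif, GGGATTTTCC with its first base at -44 from the start, and 1 match to the AP-1 motif, TGAGTCA. In the Cxcl1 window GGGAATTTCC on one strand has its first base at -71 and overlaps GGAATTTCCC, its match on the other strand. No match to either motif is in the Cxcl12 window, which says only that these letters are not there. Of all 32851 promoter windows in the table, 1.47% hold the NF-kB motif and 7.81% the AP-1 motif. The table holds windows of 110 of the 145 genes, and none of Ccl2. Of these genes 24 have the AP-1 motif and 9 the NF-kB motif: Ccl1, Ccr3, Csf1, Csf3r, Cxcl1, Cxcl10, Cxcl2, Il16 and Il6. Among the 9, Il6 and Cxcl1 were positive on every 6-week array, Cxcl2 was negative on every 6-week array, and the others had both signs there. A match is a description of letters and shows no binding.

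**Figure D2:**
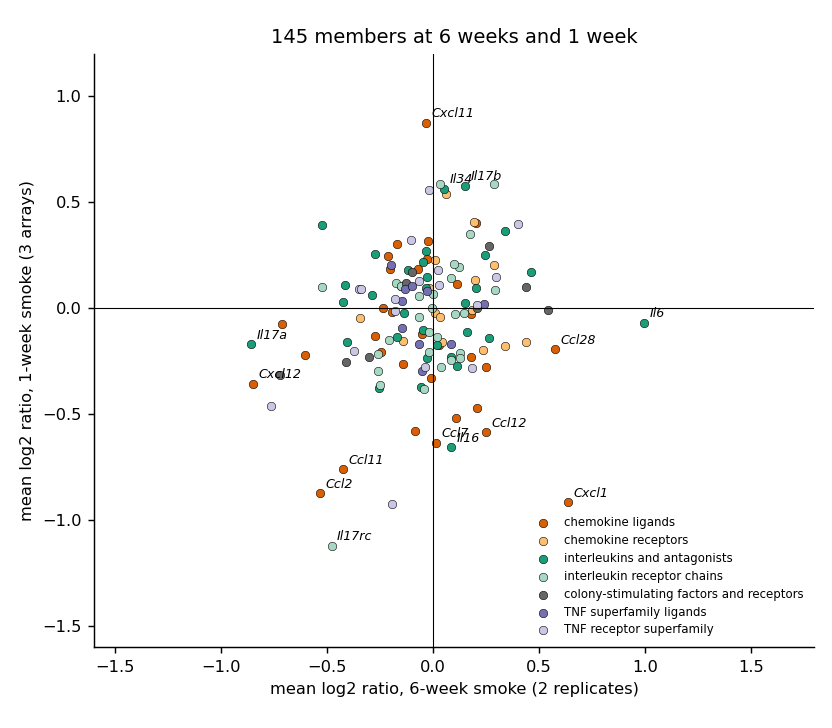
Mean log2 ratio at 6 weeks (horizontal axis, 2 replicates) and at 1 week (vertical axis, 3 arrays) for the 145 genes, coloured by role. Most genes lie near 0 on both axes; Il6 is farthest to the right at 1.00, Cxcl1 at the lower right, and Ccl2, Ccl11 and Il17rc at the lower left.

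Among the chemokine ligands, Ccl2, the ligand of Ccr2 that recruits monocytes, was at -0.77, -0.92 and -0.23 on the 6-week arrays. It was at -1.45, -0.48 and -0.69 on the 1-week arrays. All 6 values were negative, and the lowest came from the 1-week dye reversal. The paired spots of Ccl2 differed by up to 0.85. They were at -0.89 and -0.07 on 1-week replicate 2, at -0.26 and -1.11 on replicate 3, and at -0.06 and -0.40 against 6-week control. The mean was -0.54 ± 0.31 at 6 weeks and -0.87 ± 0.25 at 1 week, and the difference of 0.34 ± 0.40 was smaller than its error. Without the array against 6-week control the 6-week mean was -0.84. Over both times it was -0.70 ± 0.20, with a limma adjusted p of 0.667 over all features and 0.0901 among genes with agreeing spots. An exact sign-flip permutation test over the 5 replicates, two-sided, gave p = 0.0625, the smallest that 5 replicates allow. With 5 values of one sign the test returns this p whatever their size. It therefore adds nothing to the count of signs, and it takes the deposited signs as given. The direction rests on the deposited sign, since with both dye reversals turned the 1-week mean was 0.10 and the mean over both times 0.01.

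In GRCm38.p6 the genes Ccl2, Ccl7, Ccl11, Ccl12, Ccl8 and Ccl1 follow one another among the family's genes on one chromosome. Ccl7, a close relative of Ccl2 that also binds Ccr2, was at -0.11, -0.08 and 0.13 at 6 weeks and at -1.01, -0.06 and -0.84 at 1 week. Ccl11, or eotaxin, the eosinophil attractant that binds Ccr3, was at -0.14, 0.13 and -0.84 at 6 weeks and at -1.0, -0.51 and -0.78 at 1 week. Ccl2, Ccl7 and Ccl11 were thus negative on all 3 of the 1-week arrays, while at 6 weeks Ccl7 lay near 0 and Ccl11 was clearly negative on 1 array. Their 1-week means were -0.64 ± 0.23 for Ccl7 and -0.76 ± 0.22 for Ccl11, with limma adjusted p-values of 0.739 and 0.674. Ccl8, another Ccr2 ligand in humans, was at -0.72, -1.07 and -0.31 at 6 weeks and at -0.84, 0.28 and -0.11 at 1 week. Ccl1, at the end of the cluster, stayed within 0.27 of 0 on every array. Ccl12 ranged between -1.63 and 2.57, with spots up to 5.05 apart. Ccl24, or eotaxin-2, which is not in this cluster, was at 0.03, -0.76 and 0.07 at 6 weeks and at -0.11, 0.27 and 0.15 at 1 week, without a common sign. The CC chemokine genes of the cluster are similar in sequence, and how far their spots share signal was not tested.

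The neighbouring group of Ccl5, Ccl9, Ccl6, Ccl3 and Ccl4 holds ligands for receptors of T cells, monocytes and neutrophils. Ccl6 was negative on 5 arrays and between -0.53 and 0.20, and Ccl9 was at -1.35 on the array against 6-week control but within 0.23 of 0 on the others. Ccl4 was at 1.5 on the 6-week array against 1-week control and between -0.35 and -0.14 on the other 5 arrays, with spots within 0.31 throughout. That single value is large in a gene with tight spots, yet the dye reversal of the same comparison gave -0.21. Ccl5 behaved likewise, at -1.30 on the same array and 0.39 on its dye reversal.

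**Figure D3:**
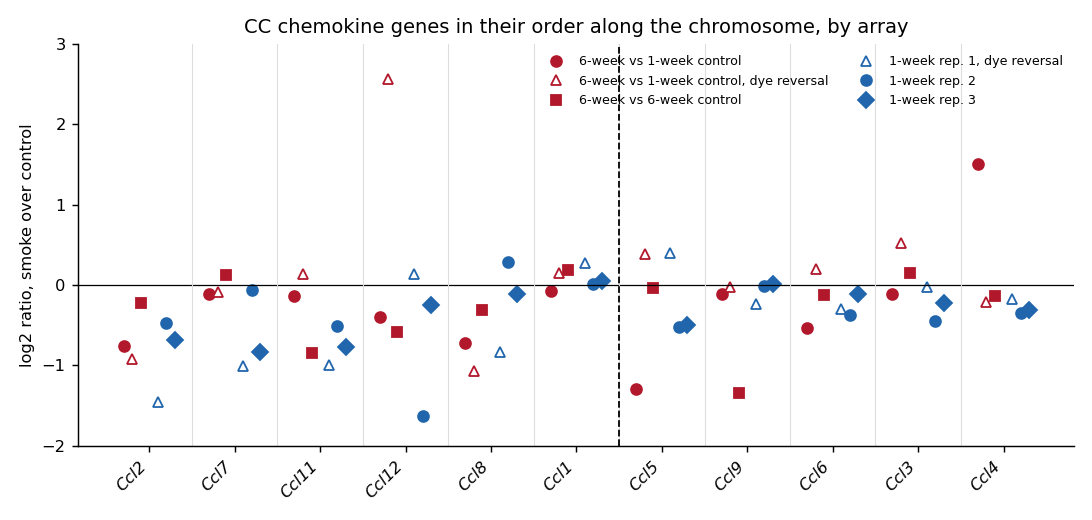
Log2 ratio on each of the 6 arrays (vertical axis) for 11 CC chemokine genes in the order in which they follow one another; the dashed line separates the group that begins with Ccl2 from the group that begins with Ccl5. Ccl2, Ccl7 and Ccl11 are below 0 on all 1-week arrays (blue), and the highest point is the 6-week dye reversal of Ccl12 at 2.57.

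Cxcl12 guides cells that carry Cxcr4 and is made by endothelium and stroma without an inflammatory stimulus. It was at -1.34, -1.30 and -0.37 on the 6-week arrays and at -0.41, -0.49 and -0.18 on the 1-week arrays. All 6 values were negative, and the lowest of them were the array against 1-week control and its dye reversal, which agreed within 0.04. The array against 6-week control lay among the 1-week arrays. The mean was -0.85 ± 0.28 at 6 weeks and -0.36 ± 0.23 at 1 week, and the limma adjusted p at 6 weeks was 1 over all features and 0.357 among genes with agreeing spots. Turning the 6-week dye reversal took the 6-week mean to -0.20, and leaving out the array against 6-week control took it to -1.32. Its receptor Cxcr4 was at 0.13, -0.01 and 0.82 at 6 weeks and at -0.20, 0.64 and -0.92 at 1 week, without a common direction.

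Other homeostatic chemokines, which place lymphocytes and tissue cells, gave no shared pattern. Ccl21a, a Ccr7 ligand, was negative on 5 arrays and between -0.58 and 0.35, and Ccl19, the other Ccr7 ligand, stayed between -0.34 and 0.16. Ccl21a and Ccl21c are nearly identical genes, so signal cannot be assigned to one of them. Cxcl13, which attracts B cells, was at 1.14 on the 6-week array against 1-week control and negative on the other 5.

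Among the chemokines induced by interferon, which bind Cxcr3 on activated T cells, Cxcl11 stood out at 1 week. Its ratio was 0.21, -0.11 and -0.11 at 6 weeks and 1.13, 0.90 and 0.59 at 1 week. The 1-week arrays were all positive and all above the 6-week arrays. The 1-week mean was 0.87 ± 0.17 and the 6-week mean -0.03 ± 0.21, with a limma adjusted p of 0.485 at 1 week and 0.951 for the difference of -0.91 ± 0.27. Its spots differed by up to 2.71, however, so it was not among the genes with agreeing spots. At 1 week spot 1 was at 0.30, -0.45 and 0.08 and spot 2 at 1.96, 2.26 and 1.10, so the high values came mostly from 1 spot. With both dye reversals turned the 1-week mean was 0.12. Cxcl10, induced by the same cytokine, stayed between -0.29 and 0.37, and Cxcl9 ranged between -0.93 and 1.11 with both signs at each time.

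The remaining neutrophil attractants did not follow Cxcl1. Cxcl2, its closest relative here in function, was at -0.13, -0.12 and -0.26 at 6 weeks and at -0.63, 0.44 and 0.13 at 1 week. Cxcl5 was positive on 5 arrays and at most 0.30. The receptor for these ligands, Cxcr2, stayed between -0.53 and 0.64. Ccl20, which attracts cells carrying Ccr6, was positive on 5 arrays at 0.74 and 0.53 among the 6-week ones and at 0.24, 0.40 and 0.56 at 1 week, but was at -0.23 on the array against 6-week control, and Ccr6 was likewise positive on 5 arrays.

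**Figure D4:**
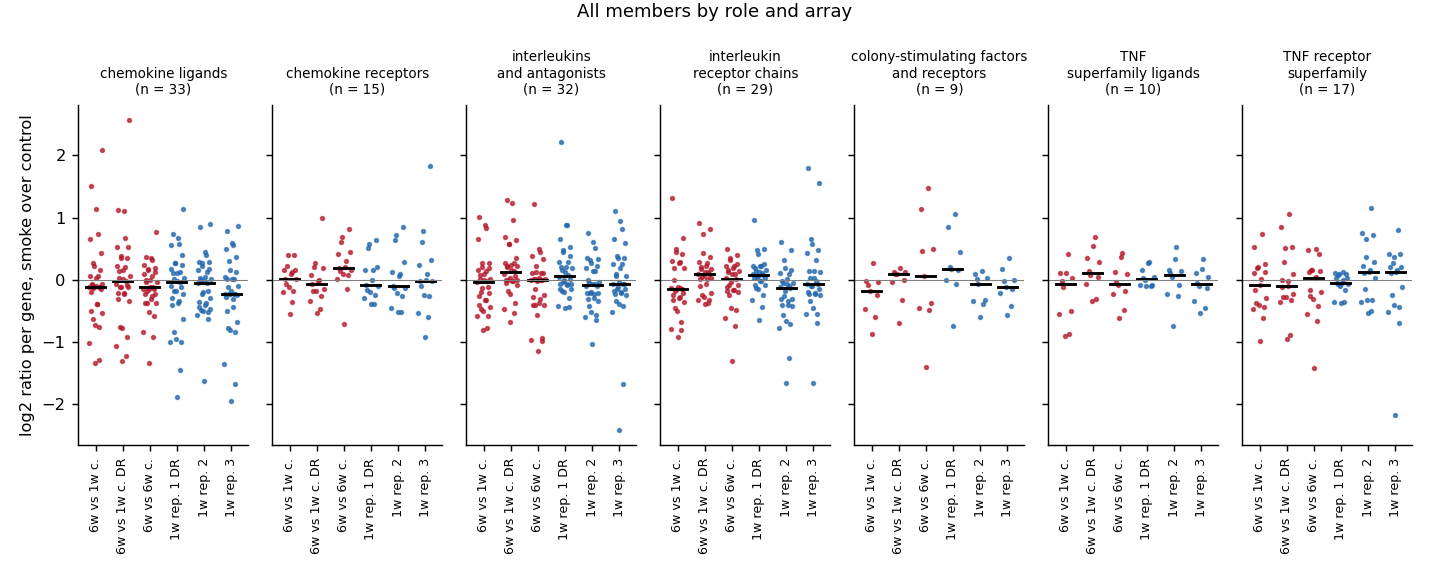
Log2 ratio of each of the 145 genes (points) on each array, in 7 panels by role; black bars are medians, red points the 6-week arrays, blue points the 1-week arrays, and DR marks a dye reversal. All medians lie between -0.23 and 0.19, close to 0.

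The 15 chemokine receptors had no member at an unadjusted p under 0.05 in any comparison. Their medians were 0.01, -0.08 and 0.19 on the 6-week arrays and -0.08, -0.11 and -0.01 on the 1-week arrays. Cx3cr1, the fractalkine receptor of patrolling monocytes, was positive on all 3 of the 6-week arrays, at 0.01, 0.19 and 0.30. Ccr2, the receptor for Ccl2, stayed between -0.27 and 0.57. Ccr8 had a value of 1.83 on 1-week replicate 3 from spots 2.75 apart, and lay within 0.26 of 0 on the other arrays. Ccr1, which binds Ccl3 and Ccl5, ranged between -0.60 and 0.71.

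Of the interleukins, Il17a was negative on all 6 arrays. It encodes the cytokine of Th17 cells that acts on endothelium and epithelium. Its ratio was -0.81, -0.68 and -0.97 at 6 weeks and -0.14, -0.22 and -0.15 at 1 week. The 6-week arrays were all lower than the 1-week arrays, with spots up to 1.42 apart. Spots were at 0.03 and -1.39 on the 6-week dye reversal and at -0.46 and 0.18 on the 1-week dye reversal. On those arrays the negative value thus came from 1 spot. The means were -0.86 ± 0.18 at 6 weeks and -0.17 ± 0.15 at 1 week, with a limma adjusted p of 0.957 at 6 weeks, 0.951 for the difference of -0.69 ± 0.23 and 0.56 for the mean over both times. Whether Il17a was expressed in the sorted cells cannot be read from ratios.

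Il33 and Il1f5 were the genes that were positive on every array. Il33, an alarmin of the interleukin-1 family stored in nuclei, was at 0.27, 0.26 and 0.22 at 6 weeks and at 0.04, 0.35 and 0.35 at 1 week. Its values were small, with a mean of 0.25 ± 0.12 over both times (limma adjusted p of 0.83). Its spots were at 0.44 and 0.0 on the array against 6-week control and at 0.70 and 0.0 on 1-week replicate 3. On those arrays the positive value thus came from 1 spot. Il1f5, now called Il36rn, blocks the receptor of interleukin-36 and was at 0.84, 0.35 and 0.33 at 6 weeks and at 0.08, 0.19 and 0.25 at 1 week, from spots up to 2.34 apart. Il34, a ligand of the receptor Csf1r, was at 0.20, -0.01 and 0.01 at 6 weeks and at 0.28, 0.74 and 0.66 at 1 week. Its 1-week mean was 0.56 ± 0.17, with limma adjusted p-values of 0.677 over all features and 0.125 among genes with agreeing spots. Its spots lay up to 0.99 apart, just under the limit of 1. At 1 week spot 1 was at 0.54, 0.99 and 1.16 and spot 2 at 0.03, 0.50 and 0.16.

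The inducers of endothelial activation themselves were close to 0 or without direction. Il1a stayed between -0.15 and 0.32. Il1b was at 0.08, 0.95 and 0.00 at 6 weeks and at -0.19, -0.03 and -0.20 at 1 week, so that apart from the 6-week dye reversal, with spots up to 2.94 apart, it stayed near 0. Tnf ranged between -0.88 and 0.68. Il18 was negative on 5 arrays and at 0.11 on the array against 6-week control. Il17b had the highest interleukin values, 2.21 and 1.28, and both were on dye reversals. On the 4 other arrays it lay between -0.42 and -0.03, so its high values moved with dye orientation. Its spots agreed within 0.42.

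Among the 29 interleukin receptor chains, Il17rc had the mean farthest from 0 over both times, -0.80 ± 0.31. It pairs with Il17ra to bind interleukin-17A. The ratio of Il17rc was 0.44, 0.26 and -1.31 at 6 weeks and -0.45, -1.26 and -1.66 at 1 week. The 1-week arrays were all negative, while at 6 weeks the array against 6-week control was negative and the others positive. The mean was -0.48 ± 0.48 at 6 weeks and -1.12 ± 0.39 at 1 week, with a limma adjusted p of 0.739 at 1 week. The array against 6-week control decides the 6-week value of Il17rc, which was 0.35 without it, and the mean over both times was then -0.39. With the 6 arrays as separate replicates the 6-week value was -0.20, and with a dye term as well it was -0.06. Il17ra stayed between -0.14 and 0.36. Il13ra2, a decoy receptor for interleukin-13, and Il1rap, the shared chain of interleukin-1 receptors, had single values of 1.79 and 1.56 on 1-week replicate 3, from genes with spots up to 3.58 and 2.89 apart. Il17rd and Il4ra were negative on all 6 arrays, Il17rd between -0.71 and -0.14 and Il4ra between -0.33 and -0.09, with spots of Il4ra up to 1.70 apart. Il6ra and Il6st, the chains that receive interleukin-6, were at -0.80, 0.17 and -0.20 and at -0.25, 0.43 and 0.50 at 6 weeks, and neither kept a sign at 1 week. Their spots lay up to 1.46 and 2.48 apart. Il1r1, the signalling receptor for interleukin-1, stayed between -0.22 and 0.10 on every array.

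The colony-stimulating factors, which support myeloid cells, showed no common shift. Csf1 stayed between -0.21 and 0.46. Its receptor Csf1r, a macrophage marker, was negative on 5 arrays, at -0.03, -0.69 and -0.46 at 6 weeks and at -0.75, 0.14 and -0.15 at 1 week. Csf2ra, the binding chain for the factor of granulocytes and macrophages, was at 1.48 on the array against 6-week control and at 1.05 on the 1-week dye reversal, against values between -0.87 and -0.33 on the other 4. Csf2rb and Csf2rb2, nearly identical genes whose signal cannot be assigned with certainty, had means over both times of opposite sign, 0.28 ± 0.14 and -0.52 ± 0.23. Csf3 reached 1.14 on the array against 6-week control from spots 3.63 apart.

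In the TNF family, Tnfrsf25, a death receptor of lymphocytes, had the most negative mean over both times. It was at 0.74, -0.96 and -1.42 at 6 weeks and at -0.37, -0.33 and -0.69 at 1 week, so that 5 arrays were negative. The mean over both times was -0.62 ± 0.22, with a limma adjusted p of 0.756. Without the array against 6-week control it was -0.29. At 1 week Tnfrsf25 averaged -0.46 ± 0.28, less negative than Tnfrsf8 at -0.92. Tnfrsf1a, the main TNF receptor of endothelium, was negative on 5 arrays and between -0.51 and 0.02, and Tnfrsf1b was between -0.52 and 0.12. Tnfrsf8, or CD30, was at -2.18 on 1-week replicate 3 from spots 3.41 apart. Tnfrsf23, a decoy receptor for the death ligand Tnfsf10 that closely resembles Tnfrsf22, was positive on 5 arrays and between -0.35 and 0.80. Of the 10 ligands none stood at an unadjusted p under 0.05, and their 6 array medians lay between -0.08 and 0.11. The largest means over both times were -0.17 ± 0.18 for Tnfsf11, the osteoclast factor RANKL, 0.13 ± 0.12 for Tnfsf13 and -0.12 ± 0.14 for Tnfsf10.

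Paired spots bear on many of the large single values. Of the 870 values of these genes over 6 arrays, 47 in 38 genes were beyond 1 in size. On the array concerned the spots lay within 0.5 of each other for 19 of the 47 values and 1 or more apart for 23. The lowest value of the family, -2.41 for Il16 on 1-week replicate 3, came from spots 4.25 apart, and the highest, 2.57 for Ccl12, from spots 5.05 apart. In contrast, Cxcl1 at -1.89, Ccl2 at -1.45, Cxcl12 at -1.34 and Il6 at 1.21 came from spots at most 0.16 apart on the array concerned. Across all arrays the spots of these genes lay up to 0.59, 0.85, 0.33 and 0.26 apart, in the same order. Over the 6 arrays, 81 of the 145 genes had spots within 1 on every array. The smallest such difference was 0.21, for Il18bp, which binds and blocks interleukin-18, and the largest was 5.65, for Tnfrsf19. Among those 81, 3 genes stood at an unadjusted p under 0.05 at 6 weeks and 8 at 1 week, against 7.75% and 14.1% of the 5628 genes tested, and 0 passed after adjustment, where 12 and 102 of the 5628 did (0.213% and 1.81%). In the mean of both times 9 of the 81 stood under 0.05, against 14.2%, and 0 passed, against 1.83%. In the difference between times 2 of the 81 stood under 0.05, against 6.72%, and 0 genes passed. Ccl2 came closest, with the adjusted p of 0.0901 given above.

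**Figure D5:**
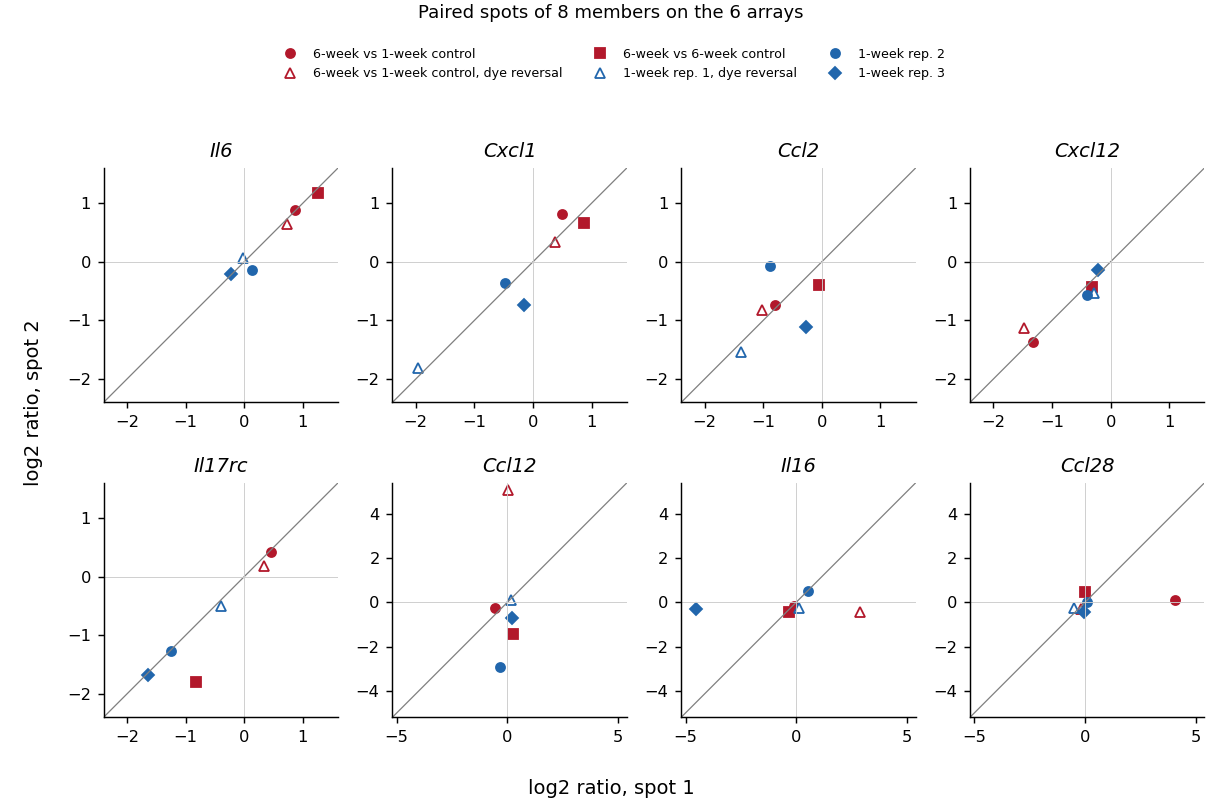
Log2 ratio of the first spot (horizontal axis) and of the second spot (vertical axis) of 8 genes on the 6 arrays, with the line of equality in grey. Il6, Cxcl1 and Cxcl12 lie along the line, whereas the extreme values of Ccl12, Il16 and Ccl28 come from 1 spot each.

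Genes downstream of these ligands and receptors were read as lists, by counts and medians. Of 37 measured genes of NF-kB and of TNF or interleukin-1 signalling, 15 were positive and 22 negative at 6 weeks and likewise at 1 week, with medians of -0.04 at 6 weeks and -0.13 at 1 week, against -0.01 at either time over all named genes. Of 27 JAK, STAT and SOCS genes, 14 were positive and 13 negative at 6 weeks, against 13 positive and 14 negative at 1 week. Of 22 genes of endothelial leukocyte adhesion, 12 were positive at 6 weeks and 11 at 1 week. In none of these lists did a gene pass limma's test with adjustment. Of the NF-kB list 0 genes stood at an unadjusted p under 0.05 at 6 weeks, where 4.12% of all features did. At 1 week, where 6.65% did, Bcl3 and Traf4 stood there, at -0.65 ± 0.19 and -0.45 ± 0.17. In the mean of both times, where 6.31% did, Bcl3 and Birc2 stood there, at -0.50 ± 0.15 and -0.42 ± 0.13. At an unadjusted p under 0.05 at 6 weeks was 1 of the 27 JAK, STAT and SOCS genes. It was Socs3, the feedback inhibitor of interleukin-6 signalling, with 0.50 ± 0.19, and its difference from 1 week was 0.66 ± 0.25. Ptgs2, the inducible cyclooxygenase, had 0.78 ± 0.20 at 6 weeks and a difference of 1.02 ± 0.25. Both had the sign of Il6 and Cxcl1 at 6 weeks, while Icam4, an adhesion molecule of the same list as Ptgs2, had -0.54 ± 0.18. Other genes of these lists at an unadjusted p under 0.05 for the difference between times ran the other way. The difference was -1.05 ± 0.33 for F11r and -0.79 ± 0.27 for Jam3, junctional adhesion molecules that were at 0.78 ± 0.21 and 0.46 ± 0.17 at 1 week. Spots of Jam3 lay up to 1.04 apart. For Ptpn11, a phosphatase that acts in cytokine signalling, the difference was -0.74 ± 0.28, from spots up to 3.25 apart. Of 29 genes that couple chemokine receptors, 13 were positive and 16 negative at 6 weeks, against 12 positive and 17 negative at 1 week. At an unadjusted p under 0.05 at 1 week were the G protein subunits Gng5, at -1.16 ± 0.21, and Gnai3, at 0.47 ± 0.14, and the small GTPase Cdc42, at -0.64 ± 0.21. Spots of Gnai3 and Cdc42 lay up to 1.47 and 1.04 apart.

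Of 36 measured leukocyte markers, 15 were positive and 21 negative at 6 weeks, against 10 positive and 26 negative at 1 week. The medians of this list lay between -0.21 and 0.02 over the 6-week arrays and between -0.12 and -0.10 over the 1-week arrays. Lyz2, the lysozyme of myeloid cells, was at -0.58 ± 0.20 at 6 weeks and -0.58 ± 0.16 at 1 week, from spots up to 1.62 apart. The median of the leukocyte list was -0.10 at 6 weeks and -0.10 at 1 week, so it was not particular to 1 week. At 1 week the NF-kB list was at -0.13, the lung epithelial list at -0.12 and the fibroblast and smooth muscle list at -0.08. The adipocyte list was at 0.06. The part of leukocyte RNA in the values of Ccl2, Ccl7 and Ccl11 was not tested. Of 18 fibroblast and smooth muscle markers, 8 were positive at 6 weeks and 6 at 1 week. At a limma unadjusted p under 0.05 stood 2 positive and 1 negative of them at 6 weeks, where 4.12% of all features did. At 1 week it was 0 positive and 3 negative, where 6.65% did. In the mean of both times it was 3 positive and 3 negative, where 6.31% did. Single genes of this list had some of the largest ratios. Postn, a matrix protein of fibroblasts, was at 2.25 ± 0.48 at 6 weeks and Acta2, smooth muscle actin, at 1.14 ± 0.26. Thy1, a surface protein of fibroblasts and T cells, was at -0.66 ± 0.21 at 6 weeks, but from spots up to 3.71 apart. Dpt and Dcn, proteoglycan-associated and proteoglycan genes of fibroblasts, were at -1.33 ± 0.22 and -0.54 ± 0.17 at 1 week. Stromal cells also make Il6, Cxcl1, Ccl2, Ccl11 and Cxcl12, and the part of stromal RNA in those values was not tested. The 17 endothelial markers had array medians between -0.48 and 0.01 at 6 weeks and between -0.20 and -0.08 at 1 week, with 12 and 10 negative. They did not move together. Of the 17, 1 positive and 1 negative gene stood at a limma unadjusted p under 0.05 at 6 weeks, where 4.12% of all features did. At 1 week it was 2 positive and 4 negative genes, where 6.65% did. In the mean of both times it was 2 positive and 5 negative, where 6.31% did. Calcrl was at 1.53 ± 0.18 at 6 weeks and 1.15 ± 0.15 at 1 week, and Cldn5 at -0.90 ± 0.21 at 6 weeks and -0.68 ± 0.17 at 1 week. Egfl7 and Robo4 were also negative at 1 week, at -0.61 ± 0.17 and -0.52 ± 0.17, with spots of Robo4 up to 3.61 apart. Tek was positive there, at 0.44 ± 0.15, and Eng was at -0.49 ± 0.14 in the mean of both times. The median of the endothelial list was -0.26 at 6 weeks and -0.06 at 1 week. The part of endothelial RNA in the values of the family was not tested either. The 14 lung epithelial markers had medians of 0.03 at 6 weeks and -0.12 at 1 week, the 8 adipocyte markers -0.14 at 6 weeks and 0.06 at 1 week, and the 5 red cell markers -0.21 at 6 weeks and 0.00 at 1 week. The red cell list had array medians between -0.57 and -0.01 at 6 weeks.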

How the data were processed

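Endothelial cells sorted from smoke-exposed and control mice were measured on 6 arrays of 2 channels. The deposited table holds 1 value for each of 32448 features and array, read as log2 ratios. No label or file header states a scanner, background correction, normalization or dye, so these are unknown. For at least 99.99% of values on each array, 2 to the size of the deposited log2 value is a whole number of hundredths, to within 0.02 of a hundredth. Each column's median is at most 3.0e-07 in size. Scale follows from this, while the method of centring and the direction of the ratio remain unknown.

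The probe table named 1 gene for 24344 features, several for 98 and none for 8006. Entrez identifiers were checked against RefSeq GRCm38.p6, used for names and gene order. Of the 145 genes only Ccl21a matched in part. The 98 features with several symbols were left unnamed, and 4 of them hold a symbol that fits the rule. Arrays were centred on their medians, spots averaged per gene (134 genes with 2 spots, 11 with more), and 5 replicates fitted by limma 3.58.1 (lmFit, then eBayes; R 4.3.3), with 3 residual degrees of freedom, two-sided, adjusted by Benjamini-Hochberg over 19242 features (11138 genes and 8104 unnamed features) with a threshold of 0.05. The fit was tested on simulated data.

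Members, lists and the sign setting were chosen with earlier results of these data known. Signs were kept as deposited, unlike in an earlier treatment that turned the 6-week dye reversal, because the correlation behind that turn changed sign on better spots. Genes named were Ccl2, Il6, those with an unadjusted p under 0.05, those with one sign on all 6 arrays, up to 3 per role with the largest mean, those that separate the times, and the extremes of spot agreement; the other genes named, and the groupings of chemokines by function, were chosen after their values were seen. No set tests were made. Alternatives changed signs, arrays, dye term, averaging, normalization, variance model, spot filter and features tested, and left out each array in turn.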

Additional observations from a re-analysis of the deposited data

Results flagged for a closer look

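Every 6-week array was positive and every 1-week array negative for 2 genes, and the reverse held for 1 gene. For Cxcl1 the difference between 6 weeks and 1 week was 1.55 ± 0.52. Il1b, within 0.20 of 0 on 5 of the arrays, differed by 0.40 ± 0.27. Ccl22, which attracts cells carrying Ccr4, was at -0.06, -0.31 and -0.16 at 6 weeks and at 0.73, 0.17 and 0.01 at 1 week, a difference of -0.47 ± 0.31 from spots up to 1.65 apart. The limma adjusted p of each difference was 0.951. Among all named genes 1.19% were positive on the 6-week and negative on the 1-week arrays, and 1.46% the reverse.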

How the results depend on the processing

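No alternative brought a gene of the family past the threshold. Features past it numbered 0 at 6 weeks, 1 week, in the mean and in the difference, but without moderation of the variance they numbered 5 at 6 weeks, 3 in the mean and 5 in the difference. Among genes with spots within 1 they numbered 12 at 6 weeks, 102 at 1 week and 103 in the mean, and with the 6-week dye reversal also turned 78 at 1 week and 1 in the difference. Testing named genes alone gave 2 at 1 week and 5 in the mean, and 6 separate arrays gave 6 in the mean. Of the family, 3 genes stood at an unadjusted p under 0.05 at 6 weeks, where 792 of all 19242 features did. With the 6-week dye reversal turned it was 0 genes, where 589 features did. On the 4 unreversed arrays it was 5, where 789 did. With separate arrays it was 7, where 979 did, and with separate arrays and a dye term 8, where 1156 did. Among the 11138 named genes alone it was 6, where 574 did. The family count was small and did not always move with that of all features. In the mean it was 9 genes, where 1215 of 19242 features did. With spots within 1 and the reversal turned it was 5 of 81, where 650 of 5628 did. In the difference it was 4 genes, where 684 of 19242 features did. With the 6-week reversal turned it was 2, where 633 did, and with both turned 1, where 397 did. With spots within 1 it was 2 of 81, where 378 of 5628 did. Leaving out 1 array other than the one against 6-week control gave between 3 and 5 genes at 6 weeks, where 685 to 958 features did. At 1 week it gave between 4 and 10, where 941 to 1353 did. In the mean it gave between 5 and 9, where 1071 to 1262 did. Without the array against 6-week control only 1 replicate remains at 6 weeks, so no count is given. Of 452 alternative values of 26 results of named genes, 446 kept their direction. This count is no measure of robustness, because many alternatives cannot move an estimate. Changing the variance model or the features tested, or leaving out an array of the other time, keeps a time's mean as it was. Most of the 26 results were also picked by their unadjusted p. With both dye reversals turned, the 1-week means of Ccl2, Ccl7 and Cxcl1 were 0.10, 0.0374 and 0.34, and for Ccl2 the mean over both times was 0.0101 and the difference -0.17. The 1-week mean of Il6 lay between -0.11 and 0.0037 when 1 array was left out, the upper value without replicate 3. The cause of these shifts was not tested. Where arrays of both orientations enter, sign and dye cannot be told apart. No paired analysis was possible because the labels carry no replicate numbers shared between groups. A test on ratios gives no depth, and spot agreement, with 81 of 145 genes within 1 on every array, limits single values.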
